A study of Mus musculus with 6 samples.

Results

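The 31 genes described here are transcripts that mark reactive astrocytes, the state that astrocytes enter after injury. They were chosen by gene symbol from the published reactive astrocyte panels, and all 31 were found among the 21899 genes of the count table. They fall into 12 pan-reactive genes, 7 genes of the A1 panel and 12 genes of the A2 panel. The comparison is between RN and RC mice, with 3 mice in each group. All 6 were wild-type male C57BL/6J mice, 8 to 10 weeks of age when obtained, whose thalamic region had been irradiated with 50 Gy, and 2 µL of an AAV9 virus at 5.0E+11 GC/mL was injected there 2 weeks later. RC mice received the control virus, GFAP104::tdTomato, which carries a red fluorescent protein, and RN mice received GFAP104::mND1-tdTomato, which also carries mouse NeuroD1 (ND1), a transcription factor that drives neuronal differentiation. Thalamus was taken 6 weeks after irradiation and sequenced in bulk as whole tissue. For the restriction of the virus to astrocytes the study names its GFAP promoter and its titre. It also reports staining at a later time, where nearly all cells marked by the control virus carried an astrocyte protein and no neuronal one. No infected cells were isolated for sequencing. Each library therefore mixes every cell type of the removed tissue, so that fewer astrocytes and less RNA per astrocyte cannot be told apart. Unirradiated mice were not analysed here, so that the values compare 2 irradiated groups and do not show what irradiation did to these genes. The comparison bears on the question of whether the astrocyte reaction differed once ND1 was expressed in astrocytes.

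Reactive astrocytes enlarge, rebuild their intermediate filaments and secrete protease inhibitors, cytokines and matrix proteins. Much of this response is switched on by cytokines of the interleukin 6 family through STAT3, and by interleukin 1 and tumor necrosis factor through NF-kB, while interferons induce a further group of immunity genes. The A1 panel was first described after inflammation and the A2 panel after ischemia, and the pan-reactive panel after both. Many panel genes are also expressed by vascular, meningeal or immune cells, so that in whole tissue they do not report on astrocytes alone.

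The promoters of 5 members are shown, because 4 of them, Timp1, Emp1, Lcn2 and Tgm1, did not overlap between the groups and Gbp2 depended on a single mouse, as described below. The windows are the 250 bases before the first annotated start, written 5′ to 3′ on the strand of the gene, from RefSeq on build GRCm38.p6. Timp1 lies at chrX:20869916-20870165 on the plus strand, Emp1 at chr6:135362681-135362930 on the plus strand, Lcn2 at chr2:32387740-32387989 on the minus strand, Tgm1 at chr14:55713493-55713742 on the minus strand and Gbp2 at chr3:142620413-142620662 on the plus strand. Capitals mark matches, on either strand, to 5 short motifs that are described after the sequences.
Timp1: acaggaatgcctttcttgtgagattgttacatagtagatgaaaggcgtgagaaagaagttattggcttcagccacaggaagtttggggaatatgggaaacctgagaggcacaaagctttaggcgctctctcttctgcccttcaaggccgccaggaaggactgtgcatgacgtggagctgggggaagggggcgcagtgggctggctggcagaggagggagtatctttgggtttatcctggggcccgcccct
Emp1: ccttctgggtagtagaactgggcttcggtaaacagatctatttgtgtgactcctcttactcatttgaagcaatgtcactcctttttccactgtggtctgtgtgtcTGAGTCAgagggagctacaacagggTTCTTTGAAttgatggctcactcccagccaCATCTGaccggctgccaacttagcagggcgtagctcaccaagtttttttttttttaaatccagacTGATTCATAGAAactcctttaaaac
Lcn2: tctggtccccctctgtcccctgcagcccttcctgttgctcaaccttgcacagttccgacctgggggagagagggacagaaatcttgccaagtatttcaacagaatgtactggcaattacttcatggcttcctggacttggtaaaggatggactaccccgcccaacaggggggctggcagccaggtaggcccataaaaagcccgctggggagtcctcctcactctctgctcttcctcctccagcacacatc
Tgm1: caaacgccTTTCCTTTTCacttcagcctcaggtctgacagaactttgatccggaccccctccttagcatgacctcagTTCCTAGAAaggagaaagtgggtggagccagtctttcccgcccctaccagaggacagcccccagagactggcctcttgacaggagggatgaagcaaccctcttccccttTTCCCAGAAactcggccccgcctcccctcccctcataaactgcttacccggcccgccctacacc
Gbp2: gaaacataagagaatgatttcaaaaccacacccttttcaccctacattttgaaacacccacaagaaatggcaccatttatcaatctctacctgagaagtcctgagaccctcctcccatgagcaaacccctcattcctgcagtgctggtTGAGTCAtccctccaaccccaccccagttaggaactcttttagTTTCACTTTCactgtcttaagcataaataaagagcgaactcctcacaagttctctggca

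The motifs were the STAT motif TTCNNNGAA, the AP-1 motif TGANTCA, the NF-kB motif (GGGA and CC with any 4 bases between them), the interferon motif ISRE (GAAA and GAAA with any 2 bases between them) and the E-box CAGATG, which is of the kind that NeuroD proteins bind. RefSeq promoters were matched for 26 of the 31 members. Of these 26 genes, 4 held the STAT motif, which 7.02% of all 32851 promoter windows of this length held. The AP-1 motif was held by 4 member genes and by 6.75% of all windows. The NF-kB motif was held by 8 member genes and by 17.6% of all windows. The ISRE was held by 4 member genes and by 2.98% of all windows, and the E-box by 6 member genes and by 14.4% of all windows. A gene can have more than 1 window here, so that gene counts and window shares are not on the same footing. Counted by window, 35 belonged to members. Of these, 5 held the STAT motif, 5 the AP-1 motif, 8 the NF-kB motif, 4 the ISRE and 7 the E-box. In the windows printed above, Emp1 held 2 AP-1 matches, 2 STAT matches and 1 E-box, and the AP-1 match nearest its start shares bases with a STAT match. Tgm1 held 2 STAT matches and 1 ISRE, Gbp2 held 1 AP-1 match and 1 ISRE, and the windows of Timp1 and Lcn2 held 0 matches. Emp1 and Tgm1, which both hold STAT letters, differed between RN and RC in opposite directions, as the values below show. A match is a run of letters and not a shown binding site.

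Between 16561663 and 18657015 reads were counted on genes in each library, and a count of 0 allowed up to 3 counts, or 0.161 to 0.181 CPM, for counting error only. Levels are given as CPM, the count of a gene relative to its library total after scaling by edgeR's TMM factors. Neurod1 itself lay between 84 and 91 counts in the RC mice and between 910 and 1711 counts in the RN mice, which matches the labels. The thalamic genes Tcf7l2, Prkcd and Slc17a6 were present in all 6 libraries, as were all 13 astrocyte markers examined. Some libraries stood apart from their group. Choroid plexus markers, whose source is the tissue that makes cerebrospinal fluid, summed to 3928, 10799 and 649 CPM in RC1, RC2 and RC3 against 355 to 396 CPM in RN. T cell markers summed to 21.3 CPM in RC1 and to 5.65 to 10.5 CPM in the other 5 mice. Summed markers of fibroblasts, the collagen-making cells of the meninges and vessel walls, reached 271 CPM in RN2 and lay between 59.2 and 154 CPM elsewhere. Among the RN mice, RN1 had the lowest level of 20 of the 28 tested members, against 34.9% of all tested genes, and RN2 had the highest level of 18 of the 28, against 33.0% of all tested genes.

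Of the 31 members, 28 passed the filter on low counts and were tested together with all other genes, 14956 in total. A call required both an adjusted p below 0.05 and a difference of 2-fold or more. By edgeR's quasi-likelihood test 0 members were called higher and 0 lower in RN, where the same test called 9 genes (0.0602%) higher and 2 genes (0.0134%) lower among all those tested. At an unadjusted p under 0.05, 5 members were higher (Timp1, Serpina3n, S1pr3, Emp1 and S100a10) and 5 were lower (Lcn2, Aspg, Nes, Tgm1 and Tm4sf1), against 5.44% and 6.33% of all tested genes. The 3 RN values lay all above the 3 RC values for 5 members (Timp1, S1pr3, Emp1, S100a10 and Clcf1) and all below them for the 5 lower members just named, against 8.18% and 8.12% of all tested genes. DESeq2's Wald test, the test named in the methods of the study, called 4 of the 29 members to which it gave an adjusted p, with Timp1 higher and Lcn2, Aspg and Tgm1 lower. It called 99 (0.61%) of all its tested genes higher and 87 (0.536%) lower. The study reports far more genes in each direction at the same thresholds, so that this run does not reproduce its counts.

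The members did not share a direction. Their median log2 fold change, RN minus RC, was -0.11, with 11 above 0 and 17 below, and the median over all tested genes was 0.0037. The pan-reactive genes had a median of -0.13 with 4 above 0 and 8 below. The A1 panel genes had a median of -0.12 with 2 above 0 and 5 below, and none of the 7 passed an unadjusted p of 0.05 or was free of overlap between the groups. The 9 tested A2 panel genes had a median of 0.05 with 5 above 0 and 4 below. Each of the pan-reactive and A2 panels held genes that were higher and genes that were lower in every RN mouse. The plot of levels relative to the RC mean shows this split and the position of RN1.

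**Figure D1:**
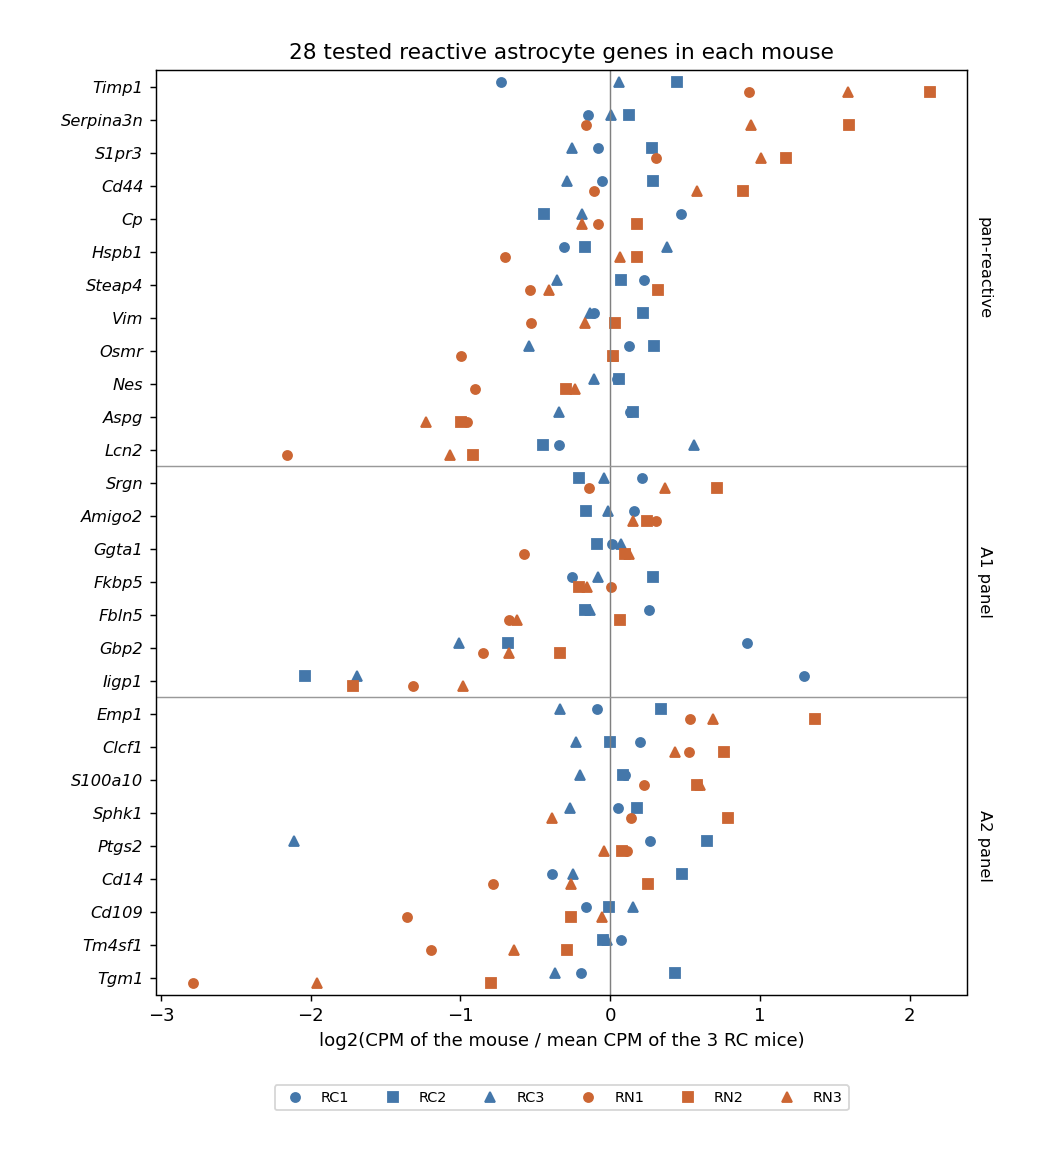
Level of the 28 tested members in each mouse, as log2 of its CPM over the mean of the 3 RC mice, with RC mice in blue, RN mice in orange and marker shapes for replicates 1, 2 and 3. Timp1, S1pr3 and Emp1 have their RN points to the right of all RC points and Lcn2, Aspg and Tgm1 to the left, and RN1 is the lowest RN mouse for 20 of the 28 genes.

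Timp1 encodes a secreted inhibitor of matrix metalloproteinases, and it had the largest positive difference of the 28 tested members. Its level was 2.36, 5.32 and 4.07 CPM in RC1, RC2 and RC3 and 7.44, 17.2 and 11.7 CPM in RN1, RN2 and RN3. Every RN mouse thus lay above every RC mouse, with RN2 highest. This gave a log2 fold change of 1.64 (SE 0.371, n = 3 mice per group), a 3.11-fold higher level, with an adjusted p of 0.136 in edgeR's quasi-likelihood test and of 0.00109 in DESeq2's Wald test. With the replicate number as a block, edgeR called Timp1 alone among the members (log2 fold change 1.63, adjusted p = 0.0453), at a background of 0.114% of genes called higher and 0.0334% called lower. Without RN2 the log2 fold change was 1.29 and the DESeq2 call was lost (log2 fold change 1.30, adjusted p = 0.0735). Timp1 is also made by fibroblasts, whose summed markers were likewise highest in RN2, and their part in the result was not tested. Timp1 lies inside the neuronal gene Syn1 on the opposite strand in the GENCODE M21 annotation, with no shared exon.

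S1pr3, a receptor for the lipid mediator sphingosine 1-phosphate, was at 28.1, 36.1 and 24.9 CPM in the RC mice and at 36.8, 66.9 and 59.6 CPM in the RN mice. The groups did not overlap, although RN1 was only just above RC2. On the log2 scale the difference was 0.87 (SE 0.228), with an adjusted p of 0.176 in edgeR and of 0.00689 in DESeq2, under the 2-fold threshold. Sphk1, the kinase that makes sphingosine 1-phosphate, lay between 2.06 and 2.81 CPM in RC and between 1.90 and 4.28 CPM in RN and overlapped between the groups (log2 fold change 0.26, edgeR adjusted p = 0.852). Whether the receptor and the kinase differed in their response was not tested.

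Emp1, a membrane protein of the A2 panel whose promoter is printed above, was at 14.5, 19.5 and 12.2 CPM in the RC mice and at 22.2, 39.7 and 24.7 CPM in the RN mice. The lowest RN mouse lay above the highest RC mouse. RN exceeded RC by a log2 fold change of 0.91 (SE 0.254), with an adjusted p of 0.203 in edgeR and of 0.0161 in DESeq2, again under the 2-fold threshold. S100a10, a partner protein of annexin A2, was at 27.2, 27.0 and 22.1 CPM in RC and at 29.7, 38.0 and 38.6 CPM in RN. Its groups did not overlap and its difference was smaller (log2 fold change 0.48, SE 0.140, edgeR adjusted p = 0.212, DESeq2 adjusted p = 0.0866). Clcf1, a cytokine that signals through the receptor of ciliary neurotrophic factor, was counted 11, 9 and 8 times in the RC mice, against 13, 17 and 13 times in the RN mice. These counts did not overlap, but they are few, and the difference was within its error (log2 fold change 0.57, SE 0.400, edgeR adjusted p = 0.669).

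Serpina3n, a secreted serine protease inhibitor and one of the standard markers of reactive astrocytes, had the highest level per kilobase of exon of the tested members, 222 CPM per kb in RC and 432 in RN, ahead of Vim at 66.9 and 58.1. Its level was 415, 500 and 462 CPM in the RC mice and 409, 1387 and 879 CPM in the RN mice. RN2 and RN3 stood above all RC mice, whereas RN1 was below the lowest of them. Its log2 fold change was 0.96 (SE 0.360), with an adjusted p of 0.341 in edgeR and of 0.401 in DESeq2. It was 0.48 in edgeR without RN2 and 1.30 without RN1, and in the latter set DESeq2 called it (log2 fold change 1.31, adjusted p = 2.02e-08). Near-identical Serpina3 genes share sequence with it, and Serpina3n held 96.5% to 99.3% of all Serpina3 counts of a library.

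Lcn2, a secreted lipocalin that binds iron carriers and a further standard marker of reactive astrocytes, differed in the opposite direction. Its level was 23.7, 21.99 and 44.2 CPM in the RC mice and 6.72, 15.9 and 14.3 CPM in the RN mice. Every RN mouse lay below every RC mouse, with RC3 well above the other RC mice. The fitted log2 fold change was -1.28 (SE 0.363), a 2.43-fold lower level, with an adjusted p of 0.205 in edgeR and of 0.00689 in DESeq2. The DESeq2 call was lost without RC3 (log2 fold change -0.89, adjusted p = 0.191) and without RN1 (log2 fold change -0.99, adjusted p = 0.0738). A choroid plexus score, the mean centred log2 CPM of the choroid plexus markers, was also added as a further term. The edgeR value was then -1.92 (adjusted p = 0.226). Every RC mouse had a higher score than any RN mouse, so that such a fit separates the score poorly from the group. Lcn2 is also stored in neutrophil granules, and the 4 neutrophil markers that passed the filter summed to 6.45, 8.72 and 14.1 CPM in RC and to 13.9, 10.1 and 1.29 CPM in RN. Ly6g, a defining neutrophil gene, had 2 to 9 counts in any mouse. RC3 was highest in both Lcn2 and the neutrophil sum. RN1 had the lowest Lcn2 (6.72 CPM) with a neutrophil sum (13.9 CPM) close to that of RC3 (14.1 CPM). RN3 held the fewest neutrophil transcripts and not the least Lcn2. The part of these cells in the result was not tested. Lcn2 is named by the study from these same mice, so that its direction is not independent evidence.

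Aspg, an asparaginase of the pan-reactive panel, had the smallest p of the members in edgeR's quasi-likelihood test. Its level was 10.7, 10.8 and 7.68 CPM in the RC mice and 4.997, 4.87 and 4.14 CPM in the RN mice. The RN mice were close to each other and lay below all RC mice. Its log2 fold change was -1.06 (SE 0.197), with an adjusted p of 0.0986 in edgeR and of 0.00249 in DESeq2. Its size is close to the 2-fold threshold, and the DESeq2 call was lost without RC1 (log2 fold change -0.99, adjusted p = 0.0286), without RC2 (-0.98, adjusted p = 0.0452) and without RN3 (-0.98, adjusted p = 0.0470). In an edgeR fit that also held the choroid plexus score, the value was -0.69 (adjusted p = 0.499), with the same limit.

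Tgm1, a transglutaminase that crosslinks proteins and a member of the A2 panel, had the largest negative difference of the 28 tested members. Its level was 12.6, 19.4 and 11.1 CPM in the RC mice and 2.08, 8.29 and 3.69 CPM in the RN mice. The groups did not overlap, and RN2 was the closest to RC. This was a log2 fold change of -1.61 (SE 0.451), a 3.05-fold lower level, with an adjusted p of 0.203 in edgeR and of 0.00705 in DESeq2. The DESeq2 call was lost without RC2 (log2 fold change -1.34, adjusted p = 0.175), without RN1 (-1.26, adjusted p = 0.0617) and without RN3 (-1.46, adjusted p = 0.121). Beside the choroid plexus score in edgeR, the value was -1.04 (adjusted p = 0.679), with the limit given for Lcn2.

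Tm4sf1, a membrane protein of the A2 panel that is abundant in endothelium, was at 44.5, 40.9 and 41.7 CPM in the RC mice and at 18.5, 34.6 and 27.2 CPM in the RN mice. The RC mice were nearly equal and all RN mice were lower (log2 fold change -0.66, SE 0.201, edgeR adjusted p = 0.228, DESeq2 adjusted p = 0.0540). Nes, the intermediate filament nestin of progenitors and reactive astrocytes, was at 43.6, 43.9 and 39.1 CPM in RC and at 22.5, 34.4 and 35.9 CPM in RN. It did not overlap between the groups (log2 fold change -0.44, SE 0.171, edgeR adjusted p = 0.355, DESeq2 adjusted p = 0.258). Nestin is also found in vessels, and the summed endothelial markers were 411 to 492 CPM in RC and 310 to 391 CPM in RN, with no overlap. The part of endothelial RNA in the values of Tm4sf1 and Nes was not tested.

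**Figure D2:**
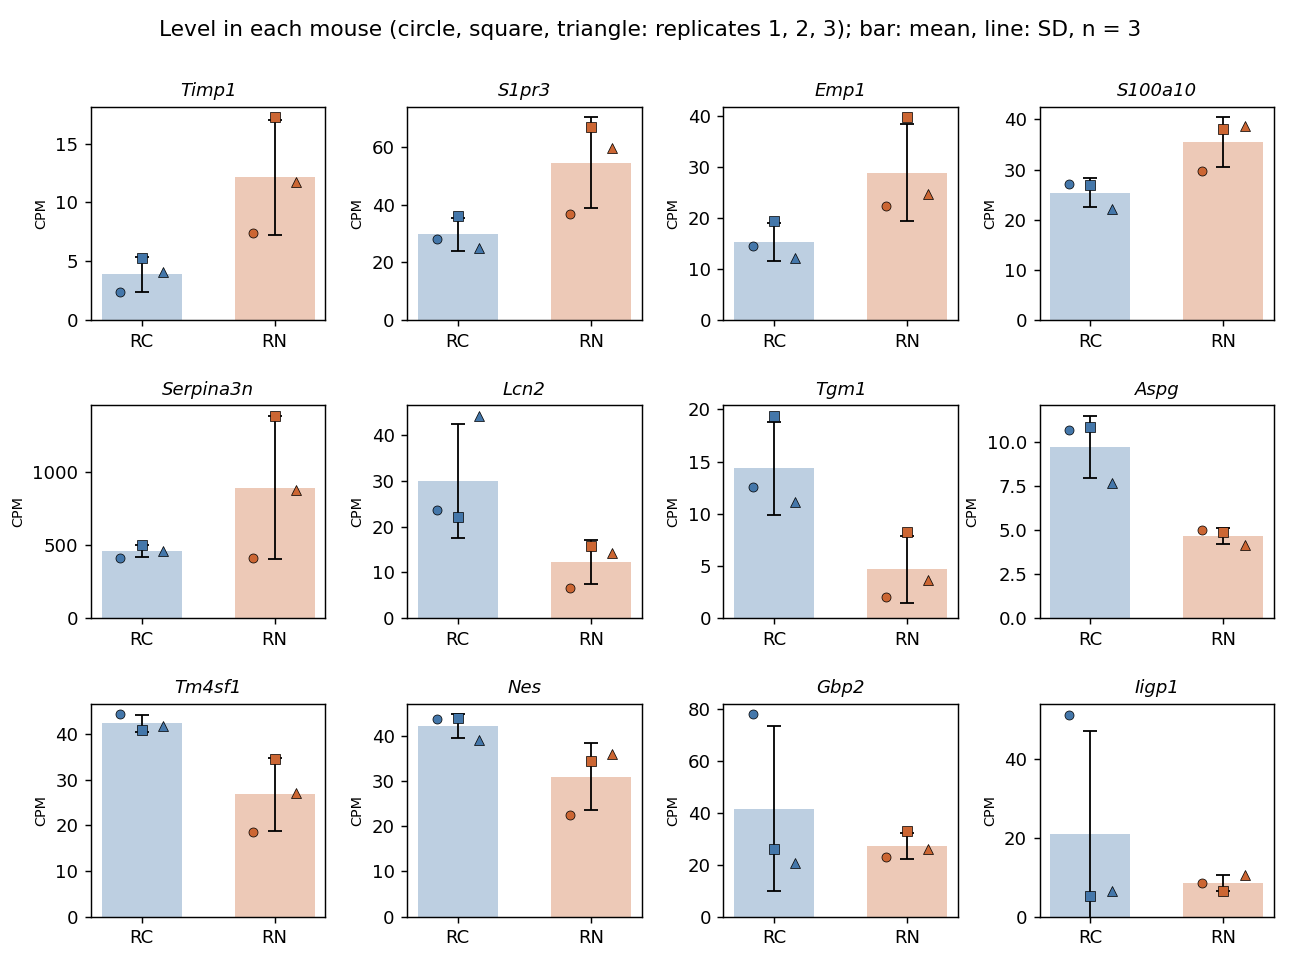
CPM of 12 members in each mouse on linear axes that start at 0, with the mean of each group as a bar, the SD of its 3 mice as a line (cut at 0 for Iigp1) and replicates 1, 2 and 3 as circle, square and triangle. Timp1, S1pr3, Emp1 and S100a10 do not overlap between the groups with RN above RC, Lcn2, Tgm1, Aspg, Tm4sf1 and Nes do not overlap with RN below RC, and Serpina3n, Gbp2 and Iigp1 overlap.

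Vim, the intermediate filament vimentin, was at 294, 369 and 289.5 CPM in the RC mice and at 220, 324 and 282 CPM in the RN mice, and the groups overlapped (log2 fold change -0.20, SE 0.156, edgeR adjusted p = 0.706). Gfap, the filament gene that defines reactive astrocytes in tissue stains, was not among the 31 genes. Its level was 2461 ± 538 CPM in RC and 1793 ± 429 CPM in RN (mean ± SD, n = 3), with all RN mice below all RC mice (log2 fold change -0.46, SE 0.203, edgeR adjusted p = 0.435). The separation was narrow, and before scaling to library size RN2 had more Gfap counts (39421) than RC1 (38688) and RC3 (37188). The 3 filament genes Gfap, Vim and Nes all had negative values of differing size, and none was called by either test.

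The other pan-reactive genes overlapped between the groups. Cd44, the receptor for hyaluronan, was higher in RN on average (log2 fold change 0.51, SE 0.249, edgeR adjusted p = 0.489), with RN1 below 2 of the RC mice. Osmr, the receptor subunit for oncostatin M, Hspb1, a small heat shock protein, Steap4, a metalloreductase, and Cp, the copper-carrying ferroxidase ceruloplasmin, had log2 fold changes between -0.25 and -0.02 and edgeR adjusted p between 0.841 and 0.985. The sign of each of these 4 turned when 1 mouse was left out. No direction can be given for them.

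In the A1 panel, the values of the interferon-inducible GTPases rested on RC1. Gbp2, a guanylate-binding protein, was at 78.1, 25.9 and 20.7 CPM in the RC mice and at 23.1, 32.9 and 26.0 CPM in the RN mice. Iigp1, an immunity-related GTPase, was at 51.1, 5.08 and 6.47 CPM in RC and at 8.39, 6.36 and 10.6 CPM in RN. RC1 was thus far above the other 5 mice for both genes. The log2 fold change of Gbp2 was -0.61 (SE 0.453, edgeR adjusted p = 0.698) and became 0.23 without RC1, and that of Iigp1 was -1.31 (SE 0.797, edgeR adjusted p = 0.603) and became 0.54 without RC1. DESeq2 gave Iigp1 no adjusted p.

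The same library was highest for the relatives of these genes. All 14 tested guanylate-binding and immunity-related GTPase genes had their highest level in RC1, against 13.6% of all tested genes. This group was assembled after the values were seen and includes Gbp2 and Iigp1 themselves. Igtp was at 135 CPM in RC1 and between 22.96 and 26.2 CPM in the other 5 mice. Reads of near-identical copies can be shared within these families, which leaves the level of single members uncertain. The summed T cell markers of RC1, given above, were also the highest of the 6 mice, and their part in the values was not tested. Without RC1 the median of the A1 panel genes was 0.23 in place of -0.12.

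The remaining A1 panel genes were closer together. Amigo2, an adhesion protein, was at 51.0, 40.9 and 45.1 CPM in the RC mice and at 56.6, 54.1 and 50.7 CPM in the RN mice, and RN3 lay just below RC1 (log2 fold change 0.24, SE 0.106, edgeR adjusted p = 0.440). Srgn, the core protein of the proteoglycan serglycin, had a log2 fold change of 0.35 (SE 0.212, edgeR adjusted p = 0.599). Ggta1, a galactosyltransferase, Fkbp5, a co-chaperone of the glucocorticoid receptor, and Fbln5, a matrix protein, had log2 fold changes of -0.08, -0.12 and -0.37, with edgeR adjusted p of 0.926, 0.845 and 0.616. The 95% confidence interval of Ggta1 was -0.51 to 0.35 and that of Fkbp5 -0.46 to 0.23, so that 2-fold differences lay outside both.

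In the A2 panel, Cd14, the co-receptor for bacterial lipopolysaccharide, and Cd109, a membrane co-receptor of TGF-beta, overlapped between the groups with log2 fold changes of -0.20 and -0.45 and edgeR adjusted p of 0.877 and 0.633. Ptgs2, the inducible cyclooxygenase of prostaglandin synthesis, was counted 53, 65 and 10 times in the RC mice, and 45, 49 and 43 times in the RN mice. RC3 was far below the other 5 mice, and the log2 fold change of 0.05 (SE 0.553) became -0.42 without it and 2.33 (edgeR adjusted p = 0.271) beside the choroid plexus score. The filter removed Ptx3, Slc10a6 and B3gnt5. Ptx3, a secreted pentraxin, was counted 5, 9 and 8 times in the RC mice, against 7, 8 and 2 times in the RN mice. Slc10a6, a transporter of steroid sulfates, had at most 4 counts in any mouse. B3gnt5, a glycosyltransferase, was counted 15, 9 and 19 times in the RC mice, against 2, 5 and 7 times in the RN mice, which did not overlap (log2 fold change -1.63, SE 0.637, adjusted p = 0.390 in edgeR without the filter, and 0.437 in DESeq2).

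**Figure D3:**
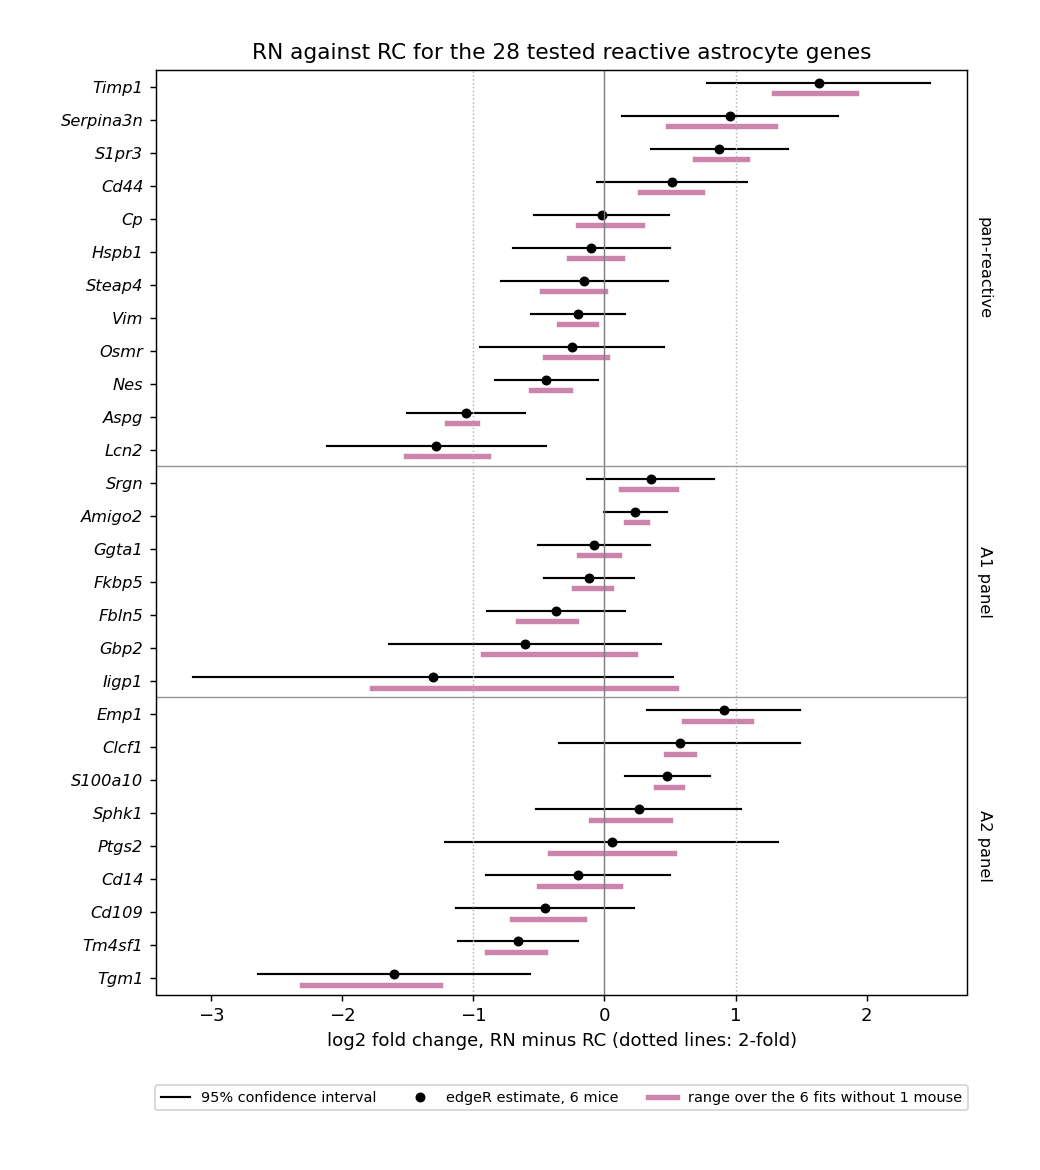
Log2 fold change (RN minus RC) of the 28 tested members, with the edgeR estimate as a point, its 95% confidence interval as a black line, the range over the 6 fits that each leave out 1 mouse as a pink line, and dotted lines at 2-fold. The intervals of Timp1, S1pr3, Emp1, S100a10 and Serpina3n lie above 0 and those of Lcn2, Aspg, Tgm1, Tm4sf1 and Nes below 0 before adjustment, and the ranges of Gbp2 and Iigp1 cross 0.

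The position of RN1 and RN2 bears on these counts. Without RN1, the RN values lay all above the RC values for 9 members in place of 5, the added genes being Serpina3n, Cd44, Srgn and Ggta1. Without RN2, they lay all below for 9 members in place of 5, the added genes being Fbln5, Steap4, Vim and B3gnt5, which then passed the filter. Leaving out a mouse can add such genes and cannot remove them. This holds for any gene, and the shares of all tested genes given above belong to the full set of mice. Shares for the smaller sets are not given here, so that the added genes are not a result about the members. S1pr3 passed the 2-fold threshold in DESeq2 without RC2 (log2 fold change 1.03, adjusted p = 0.00391) and without RN1 (1.09, adjusted p = 6.32e-06). Emp1 did so without RC2 (log2 fold change 1.11, adjusted p = 0.00614), without RN1 (1.07, adjusted p = 0.0124) and without RN3 (1.015, adjusted p = 0.0492).

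Of the panel genes outside the 31, 6 of 7 were tested, with a median log2 fold change of -0.21 and 0 called by either test. Serping1, the inhibitor of complement component C1, was higher in every RN mouse, with RC at 38.0 ± 15.2 CPM and RN at 72.9 ± 22.4 CPM (mean ± SD, n = 3). The difference, a log2 fold change of 0.94 (SE 0.316), was under the 2-fold threshold. Its adjusted p was 0.278 in edgeR and 0.0305 in DESeq2. Psmb8, an interferon-inducible proteasome subunit, had a log2 fold change of -0.52 (edgeR adjusted p = 0.503) and had its highest count, 906, in RC1. Within the A1 panel the complement inhibitor Serping1 and the GTPases thus had values of opposite sign, and those of the GTPases rested on RC1.

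Among the ligands that induce reactive genes, 9 of 10 were tested. Their median log2 fold change was 0.41, with 8 above 0 and 1 below, and 0 were called by either test. Il1a, a microglial inducer of the A1 panel, reached 4.55 ± 0.604 CPM in RN against 2.16 ± 0.629 CPM in RC (log2 fold change 1.08, SE 0.287, edgeR adjusted p = 0.188), with no overlap between the groups. C1qc, a chain of complement component C1q, had a log2 fold change of 0.37 (edgeR adjusted p = 0.336). Cntf, the ciliary neurotrophic factor that astrocytes make, averaged 2.97 ± 0.719 CPM in RN against 5.27 ± 0.839 CPM in RC (log2 fold change -0.82, SE 0.256, edgeR adjusted p = 0.235), with no overlap. The microglial markers had a median of -0.08 and summed to 793 CPM in RN1 against 945 to 1099 CPM in the other 5 mice.

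All 12 genes of the receptors and signalling proteins below these ligands were tested, with a median log2 fold change of -0.07, 3 above 0 and 9 below, and 0 called by either test. Cntfr, the receptor for Cntf and Clcf1, was lower in every RN mouse (87.9 ± 5.94 CPM in RC and 70.3 ± 1.92 CPM in RN, log2 fold change -0.32, SE 0.0850, edgeR adjusted p = 0.185). Nfkbia, the inhibitor and target of NF-kB, had a log2 fold change of -0.44 (edgeR adjusted p = 0.424), and Socs3, the feedback target of STAT3, had 0.62 (edgeR adjusted p = 0.559). Both overlapped between the groups. Of the Cntfr ligands, Clcf1 was higher and Cntf was lower in every RN mouse, at edgeR adjusted p of 0.669 and 0.235.

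The general astrocyte markers differed from the members in that they shared a direction. All 13 had a negative log2 fold change, with a median of -0.40, and 11 had an unadjusted p under 0.05 in edgeR. For 10 of them every RN mouse lay below all RC mice. All 13 differences were under the 2-fold threshold, so that 0 were called by either test. DESeq2's adjusted p was 1.89e-05 for Aldoc, 0.000414 for Aqp4, 0.00602 for Sox9 and 0.0105 for Ndrg2. It was 0.0156 for Gjb6, 0.0165 for Gja1 and 0.0230 for Aldh1l1, and 0.0751 to 0.792 for the other markers. Their summed level was 7514 to 9134 CPM in RC and 5941 to 6525 CPM in RN, with no overlap. Glul, glutamine synthetase, averaged 1234 ± 60.7 CPM in RN against 1570 ± 248 CPM in RC (log2 fold change -0.35, edgeR adjusted p = 0.266), and Slc1a2, a glutamate transporter, averaged 1143 ± 143 CPM against 1333 ± 141 CPM (log2 fold change -0.22, edgeR adjusted p = 0.530). Aldoc, the glycolytic enzyme aldolase C, averaged 804 ± 73.6 CPM against 1358 ± 217 CPM (log2 fold change -0.76, edgeR adjusted p = 0.0836). The reactive genes that were higher in RN, such as Timp1 and Emp1, were so beside lower levels of these markers, and the difference between the lists was not tested. The sums of the astrocyte markers moved with the groups in the same direction as Lcn2, Aspg, Tgm1, Tm4sf1 and Nes, and the part of astrocyte number in those values was not tested.

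Markers of other cell types also moved with the groups. Choroid plexus markers were lower in RN for 11 of 11 genes, with a median log2 fold change of -3.39, and the most abundant ones, Ttr and Enpp2, were lower in every RN mouse. Fibroblast markers were above 0 for 6 of 6 genes with a median of 0.56, with sums of 59.2 to 154 CPM in RC and 119 to 271 CPM in RN that overlapped. Endothelial markers were below 0 for 8 of 9 genes with a median of -0.40, and ependymal markers for 5 of 5 genes with a median of -0.91. T cell markers were below 0 for 5 of 5 tested genes with a median of -0.88. The 6 thalamic markers were all below 0 as well, with a median of -0.54, and their sums overlapped between the groups, at 698 to 1450 CPM in RC and 507 to 999.8 CPM in RN. Beside the choroid plexus score, edgeR called 0 members. Timp1, S1pr3 and Emp1 then had log2 fold changes of 1.83, 1.27 and 1.39, with edgeR adjusted p of 0.429, 0.310 and 0.327. That score was higher in every RC mouse than in any RN mouse, and the part of the other markers in the members' values was not tested.

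**Figure D4:**
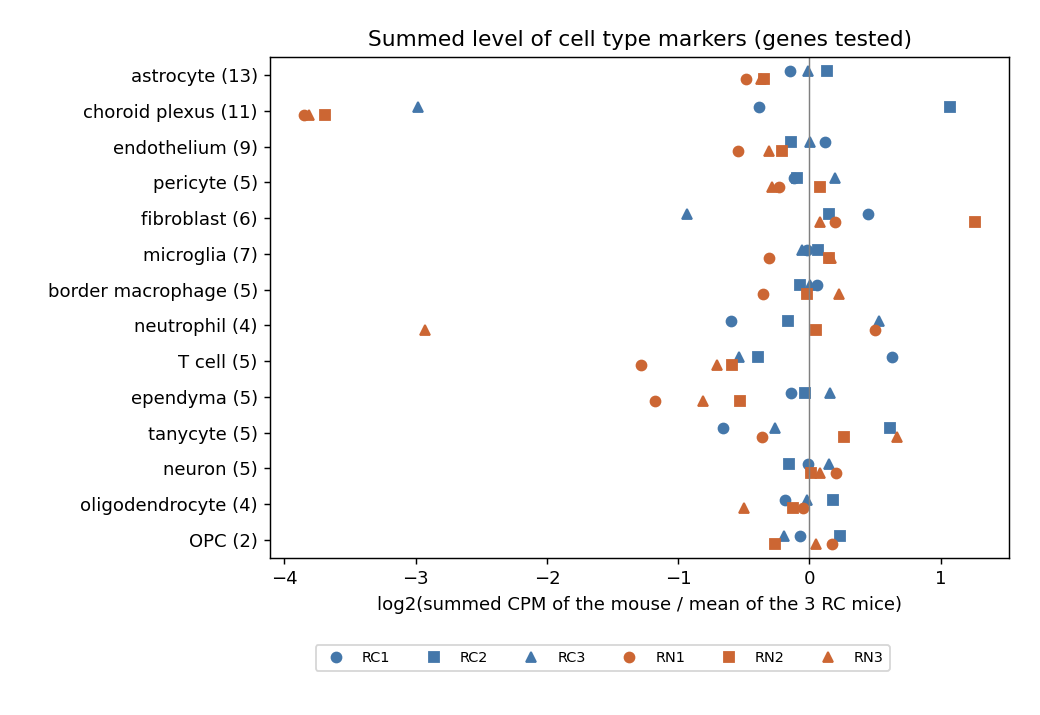
Summed CPM of the tested markers of each cell type (number of genes in brackets) in each mouse, as log2 of the sum over the mean sum of the 3 RC mice, with RC mice in blue, RN mice in orange and marker shapes for replicates 1, 2 and 3. The astrocyte, choroid plexus, endothelium, ependyma and T cell sums are lower in every RN mouse than in any RC mouse, RN2 is highest for fibroblasts, RC1 for T cells, and RN3 is lowest for neutrophils.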

How the data were processed

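Bulk RNA of thalamus from 3 RC and 3 RN mice was analysed, grouped by the sample labels. The authors deposited whole-number read counts per gene without normalization. The submitters' processing notes name fastp 0.18.0, FastQC, HISAT2 2.2.4 and RSEM 1.2.19 and the build GRCm39, with no role or order, so that the deposited counts may be rounded estimates. The annotation, the use of strand and the handling of reads shared between genes are not given in the sources used here, so that counts of Serpina3, guanylate-binding and immunity GTPase genes, and of genes with overlapping exons on the opposite strand (Cp, Amigo2, S1pr3, Tgm1, Sphk1 and Gbp2), are uncertain. Per the labels each library is 1 replicate, and p-values measure the spread between the 3 mice of a group.

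Low genes were dropped by filterByExpr at a minimum count of 10, TMM factors were computed, and the quasi-likelihood test of edgeR 4.0.16 (R 4.3.3) compared the groups over 14956 genes with no further term. P-values were adjusted over all of these by the Benjamini-Hochberg method, and calls needed an adjusted value below 0.05 together with a difference of 2-fold or more. The standard error is the log2 fold change over the root of the F statistic. The biological coefficient of variation was 17.4%. Log2 CPM used a prior count of 2. DESeq2 1.42.0 was run on all genes with any count. Totals of 16561663 to 18657015 reads gave a floor of 0.161 to 0.181 CPM. An exact permutation test of 3 against 3 mice cannot go below p = 0.1 and was not used. Exon lengths and overlaps came from GENCODE M21 and promoters from RefSeq, both on GRCm38, by symbol.

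The code was tested on simulated counts. For RC and RN mice that share a replicate number, the departures from the group means had r across genes of 0.173, 0.120 and 0.209. For pairs with different numbers r ranged from -0.285 to 0.156, and the labels do not say what a number marks. Blocked values are given where they change a call. The members and gene lists were chosen with earlier results of these data known. Members whose groups did not overlap, that had an unadjusted p under 0.05, that DESeq2 called, whose value of at least 0.5 changed sign without 1 mouse, or that were Lcn2, Serpina3n, Vim or Nes are given in every mouse, pathway lists by up to 3 genes of smallest p, and marker lists by up to 2 genes of highest mean count. Igtp, Aldoc, Ly6g, Sphk1, Ptgs2, Amigo2, the thalamic genes and the astrocyte markers given with a DESeq2 adjusted p were named after their values were seen. Alternatives were DESeq2, its size factors in edgeR, other filters, no fold threshold, edgeR without its legacy option or with its robust option, the replicate block, the choroid plexus score as an added term and each mouse left out. DESeq2 with a mouse left out or with the block was added after seeing the data.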

Additional observations from a re-analysis of the deposited data

How the results depend on the processing

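Of 392 log2 fold changes of the 28 tested members under 14 alternatives, 365 kept their direction and stayed uncalled, and 22 reversed. Another 5 became calls (4 in DESeq2, and Timp1 with the replicate block). The main fit called 0 members, so that no call could be lost and these counts do not measure how firm a call is. DESeq2 called 99 genes higher and 87 lower, 1 member higher and 3 lower. Without the filter, edgeR called 36 higher and 7 lower, and with the replicate block 17 and 5, of which 1 was a member, higher. Beside the choroid plexus score it called 0 and 1, and 6 members were higher and 2 lower at an unadjusted p under 0.05. The share of all genes at that p is not given for this fit. The median became positive for all members (0.13), the pan-reactive genes (0.11) and the A1 panel (0.025), and was 0.56 for the A2 panel. Steap4 (0.19), Osmr (0.44), Vim (0.033), Fkbp5 (0.10), Gbp2 (0.025) and Cd14 (0.29) reversed. With the replicate block Cp reversed (0.018). The block changed no other call of a member.

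With 1 mouse left out, edgeR called 3 to 26 genes higher and 0 to 18 lower. In these sets 5 to 9 members were higher without overlap and 6 to 9 lower, and the shares of all genes are not given for them. The median ranged from -0.27 to 0.091 for all members and from -0.31 to 0.012 for the pan-reactive genes. For the A1 panel it ranged from -0.20 to 0.23 and for the A2 panel from -0.31 to 0.24. In the same sets DESeq2 called 0 to 4 members higher and 1 to 3 lower. The share of all genes that it called in these sets is not given here, so that the counts have no background. Log2 fold changes that crossed 0 ranged from -0.48 to 0.0034 for Steap4, -0.27 to 0.14 for Hspb1, -0.46 to 0.017 for Osmr, -0.20 to 0.29 for Cp, -0.23 to 0.048 for Fkbp5, -0.20 to 0.11 for Ggta1, -0.93 to 0.23 for Gbp2, -1.77 to 0.54 for Iigp1, -0.11 to 0.50 for Sphk1, -0.50 to 0.12 for Cd14 and -0.42 to 0.53 for Ptgs2. The cause of these changes was not tested. Depth limits Clcf1, Ptx3, Slc10a6 and B3gnt5, which had under 20 counts in every mouse.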
